A study of Mus musculus with 15 samples.

Results

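CpG methylation was described at the potassium channel genes of the mouse dentate gyrus. The set holds the autosomal protein-coding genes of the RefSeq annotation (GRCm38) whose symbol starts with Kcn, apart from 1 Kcnq gene and its antisense partner, which were not analysed here. It counts 91 of 20665 autosomal protein-coding genes. The tissue came from 15 female C57BL/6JRj mice aged 7.5 months, with 5 mice in each of 3 housing groups. Standard mice had lived in standard cages for 6 months, and enriched mice in an enriched environment for 6 months. The third group had 3 months of enrichment followed by 3 months in standard cages and is called the withdrawal group. DNA of the dissected dentate gyrus was measured by reduced representation bisulfite sequencing, in which CpG-rich fragments are sequenced after bisulfite has converted unmethylated cytosines to uracil. A dissected dentate gyrus holds several cell types, so a percentage at a site averages over them, and a change in cell makeup and a change within cells cannot be told apart.

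Potassium channels let potassium leave the cell and so set the resting potential, the shape of the action potential and the rate at which a neuron can fire. Voltage-gated, inwardly rectifying, tandem-pore and calcium-activated channels form separate families, and accessory subunits tune their gating and their place in the membrane. In granule cells of the dentate gyrus these channels contribute to the sparse firing for which the cells are known. CpG-rich gene starts are generally unmethylated in mammals, whereas gene bodies are commonly methylated.

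Percentages were compared only at CpG sites (1 cytosine on 1 strand) with a value in all 15 mice. Of the 2084 sites listed inside the potassium channel genes or within 2 kb of them, 478 met this, 393 inside a gene and 85 outside it. They fell in 64 of the 91 genes. Another 22 genes had listed sites but none with a value in every mouse, among them Kcna2, Kcna4, Kcnc4, Kcnh2, Kcnk3 and Kcnt1, and 5 genes (Kcne2, Kcnk7, Kcnk16, Kcnmb1 and Kcnrg) had no listed site. A gene region, the mean over the complete sites of a gene, was tested where it had at least 3 sites. This held for 55 of the 91 genes (60.4%), against 39.1% of all autosomal protein-coding genes. The files hold no read counts, and how many reads stand behind a 0% or a 100% in a mouse is unknown. No complete site lay in 2 potassium channel genes, and 30 sites were shared with a gene outside the family.

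Gene starts are shown first, because the lowest methylation in the family lay there. The sequences below run from 250 bases before an annotated start to 50 bases after it, 5′ to 3′ on the strand of the gene, and capitals mark the CpGs with a value in all 15 mice. They are RefSeq sequences of GRCm38.p6. The first is 1 of the starts of Kcnk2, a tandem-pore background channel, at chr1:189343304-189343603 on the minus strand. The second is the start of Kcnh7, a channel of the ether-a-go-go family, at chr2:63184238-63184537 on the minus strand. The third is a start of Kcnmb2, an inactivating accessory subunit of the large-conductance calcium-activated channel, at chr3:31902453-31902752 on the plus strand. The fourth, shown for contrast, is the start of Kcna7, a voltage-gated channel of the shaker family, at chr7:45405710-45406009 on the plus strand.
Kcnk2: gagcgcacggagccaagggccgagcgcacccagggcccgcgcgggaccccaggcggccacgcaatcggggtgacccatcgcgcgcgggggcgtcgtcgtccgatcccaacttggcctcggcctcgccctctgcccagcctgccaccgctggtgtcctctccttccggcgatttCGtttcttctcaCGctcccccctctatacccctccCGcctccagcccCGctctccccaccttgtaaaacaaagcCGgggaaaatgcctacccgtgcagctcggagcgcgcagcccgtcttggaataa
Kcnh7: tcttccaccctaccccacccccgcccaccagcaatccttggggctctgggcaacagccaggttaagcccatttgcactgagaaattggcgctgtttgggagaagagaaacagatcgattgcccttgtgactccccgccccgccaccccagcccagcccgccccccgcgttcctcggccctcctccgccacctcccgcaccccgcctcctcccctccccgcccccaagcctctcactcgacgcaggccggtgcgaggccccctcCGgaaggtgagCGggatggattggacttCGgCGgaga
Kcnmb2: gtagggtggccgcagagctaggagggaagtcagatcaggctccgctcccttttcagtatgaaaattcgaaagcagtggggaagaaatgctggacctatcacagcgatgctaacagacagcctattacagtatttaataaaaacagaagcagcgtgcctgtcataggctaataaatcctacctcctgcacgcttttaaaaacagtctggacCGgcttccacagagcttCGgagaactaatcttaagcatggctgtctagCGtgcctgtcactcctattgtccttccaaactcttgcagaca
Kcna7: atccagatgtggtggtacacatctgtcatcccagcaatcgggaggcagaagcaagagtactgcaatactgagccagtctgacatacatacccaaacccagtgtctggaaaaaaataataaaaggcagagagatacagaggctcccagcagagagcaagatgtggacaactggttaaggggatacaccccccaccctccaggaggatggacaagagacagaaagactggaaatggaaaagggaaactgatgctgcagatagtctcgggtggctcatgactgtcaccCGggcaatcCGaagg

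The Kcnk2 sequence held 33 CpGs, and the 5 measured ones averaged 2.37% ± 1.43 in standard mice, 1.08% ± 0.99 in enriched mice and 1.58% ± 1.35 in withdrawal mice (SD, n = 5 each). The highest single mouse was at 3.75%. The Kcnh7 sequence held 21 CpGs, and its 4 measured ones averaged 1.67% ± 2.54, 0.51% ± 0.88 and 1.04% ± 0.96 in the same order. In the Kcnmb2 sequence 3 of 9 CpGs were measured, and they averaged 0.32% ± 0.71, 0.59% ± 1.06 and 0.56% ± 1.24. The Kcna7 sequence stood apart with 4 CpGs, of which 2 were measured. Their means were 25.3% ± 9.91 (standard), 35.5% ± 13.5 (enriched) and 38.1% ± 9.79 (withdrawal), with the groups overlapping between 29.2% and 38.0%. Starts of 68 of the 91 genes were listed in the RefSeq promoter table, as 93 sequences with a median of 9 CpGs, against 14 over all 20085 autosomal sequences of that table. The letters CCGG, searched on both strands (the motif reads the same on each), occurred in 63.4% of the 93 and in 63.5% of the 20085.

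The low level held on average over the starts that had complete sites. The 108 potassium channel sites within 1 kb of an annotated start lay in 25 of the 91 genes. They averaged 6.35% over the 15 mice, and 91.7% of them were below 20%. The 221 sites beyond 1 kb averaged 53.8%. Sites of genes with no listed start are in neither count. Over all autosomal protein-coding genes the corresponding means were 5.96% and 53.3%. The potassium channel sites averaged 30.9% between 1 and 2 kb from a start (28 sites) and 29.2% between 2 and 5 kb (14 sites). They averaged 52.1% between 5 and 20 kb (52 sites) and 62.3% farther away (127 sites). In the same classes the means over all genes were 23.4%, 38.8%, 59.5% and 60.8%.

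**Figure D1:**
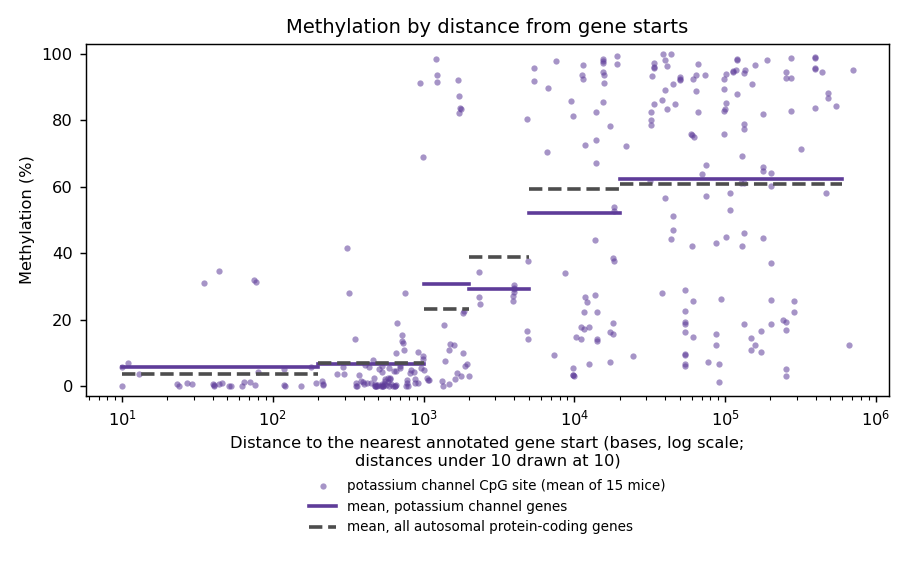
Methylation of potassium channel CpG sites, in percent, against distance from the nearest annotated start in bases on a log scale. Points are means of 15 mice per site, and lines are means per distance class for potassium channel genes (solid) and all autosomal protein-coding genes (dashed). Sites within 1 kb average 6.35% and sites beyond 1 kb average 53.8%.

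Inside single genes the contrast was often wider. Of the 10 genes with at least 3 complete sites on each side of the 1 kb limit, 9 were lower near the start than elsewhere. In Kcnk2 the 5 sites near the start averaged 1.68% and the 8 others 87.8%, and no mouse exceeded 3.75% near the start or fell under 82.3% elsewhere. In Kcnh7 the means were 0.63% over 7 sites and 80.7% over 4 sites, and in Kcnmb2 3.46% over 7 sites and 76.2% over 10 sites. Kcnh5, a brain channel of the ether-a-go-go family, had 15 sites near its starts at 1.86% and 11 others at 69.9%. The gap was smaller in Kcnj10, the inward rectifier of glial cells, at 16.0% and 34.7%. It was also smaller in Kcnip1, a calcium-binding partner of A-type channels, at 16.4% and 51.4%. Kcna7 ran the other way, with 23.8% over 6 sites near the start and 3.87% over the 4 others. Its start region was the only 1 of the 18 tested that averaged 20% or more.

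**Figure D2:**
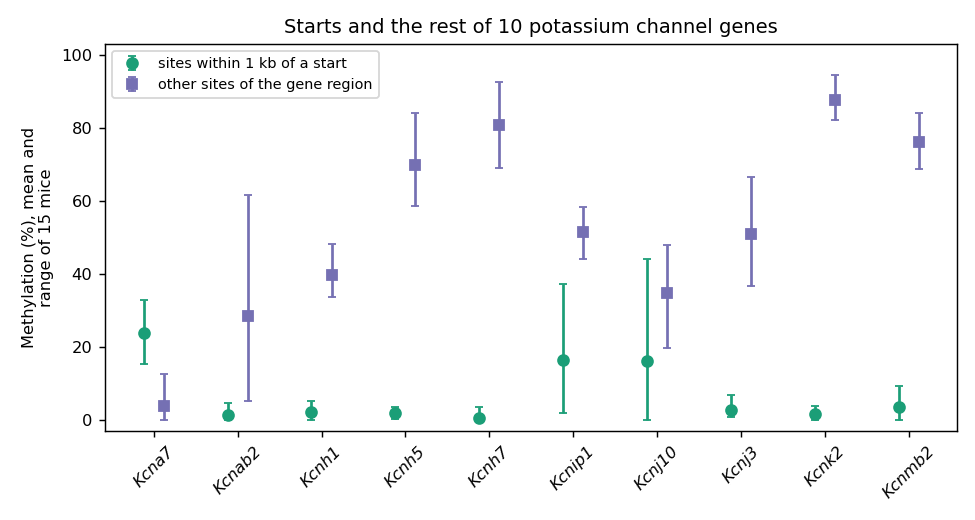
Methylation, in percent, of sites within 1 kb of a start (circles) and of the other sites of the gene region (squares) in 10 potassium channel genes. Symbols are means and bars the range over 15 mice. Kcna7 is the 1 gene in which the start lies above the rest (23.8% and 3.87%).

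Over all 478 sites, 53.1% were below 20%, 20.7% lay between 20% and 80% and 26.2% were above 80%. The shares over the 65713 complete sites of all genes were 57.9%, 16.5% and 25.6%. Levels differed by subfamily, and these levels depend on which part of each gene the method reached. They are given as means over the 15 mice.

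Among the voltage-gated channels, the shaker family (Kcna, 47 sites) averaged 19.7%. Kcna1, a low-threshold channel of axons, supplied 26 of those sites, all between 0% and 9.37%, and its gene region averaged 1.38%. Kcna10 (94.3%) and Kcna5 (85.9%), both known mainly from tissues other than neurons, were among the 5 highest of the 55 tested gene regions. Kcna3 averaged 6.12% and Kcna7 15.9%. Kcnb2, a delayed rectifier, had the highest tested gene region at 94.7%, over 11 sites that each averaged at least 82.1%. The Kcnc family, which serves fast firing, averaged 17.5% over 27 sites. In it Kcnc1 stood at 15.2% and Kcnc2 at 45.3%. The A-type channels Kcnd2 and Kcnd3, which act in dendrites, stood at 68.0% and 30.1%. The Kcnh family averaged 28.3% over 62 sites, and its 5 tested gene regions ran from 10.8% in Kcnh3 to 38.2% in Kcnh8. The Kcnq family, which carries the M-current that limits repetitive firing, averaged 28.5% over 19 sites, with Kcnq3 at 61.4%.

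The inward rectifiers (Kcnj, 50 sites) averaged 27.0%. Kcnj5, a subunit of channels opened by G proteins, had the lowest tested gene region at 0.68%, all of it from 3 sites near its start. The other subunits of that kind stood at 26.9% (Kcnj3), 40.2% (Kcnj6) and 36.9% (Kcnj9). Kcnj11, the pore of the channel closed by ATP, stood at 4.08%. The background channels (Kcnk, 53 sites) averaged 43.1%, and their 6 tested gene regions ran from 6.73% in Kcnk4 to 70.3% in Kcnk9. Kcnk5 and Kcnk13, with 1 complete site each, stood at 93.3% and 98.0% and were not tested as gene regions. The calcium-activated channels comprised the large-conductance family with its accessory subunits (Kcnm, 43 sites, 32.9%) and the small-conductance family (Kcnn, 34 sites, 49.9%). Kcnma1, the pore of the first, stood at 35.0%, with its brain accessory subunit Kcnmb4 at 13.4%. Kcnn3 stood at 87.2%, Kcnn1 at 65.3% and Kcnn2 at 37.8%. The sodium-activated channel Kcnt2 stood at 34.9% over 3 sites.

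The remaining 101 sites averaged 46.7%. They lie in accessory and silent subunits, apart from those of the Kcnm family, and in the sperm channel Kcnu1. The silent subunits Kcns2 and Kcns3, which act only together with Kcnb channels, stood at 3.64% and 1.92%, and Kcng4 of the same kind at 2.48%. Kcnv2, also silent, stood at 72.2%, and its mice spread over 43.7 points in 1 group, the widest spread of any tested gene region. Kcne1, a single-span accessory subunit, stood at 90.8% and Kcnu1 at 84.2%. The 4 calcium-binding Kcnip partners of A-type channels averaged 52.4% over 41 sites, from 8.84% in Kcnip2 to 74.2% in Kcnip4.

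**Figure D3:**
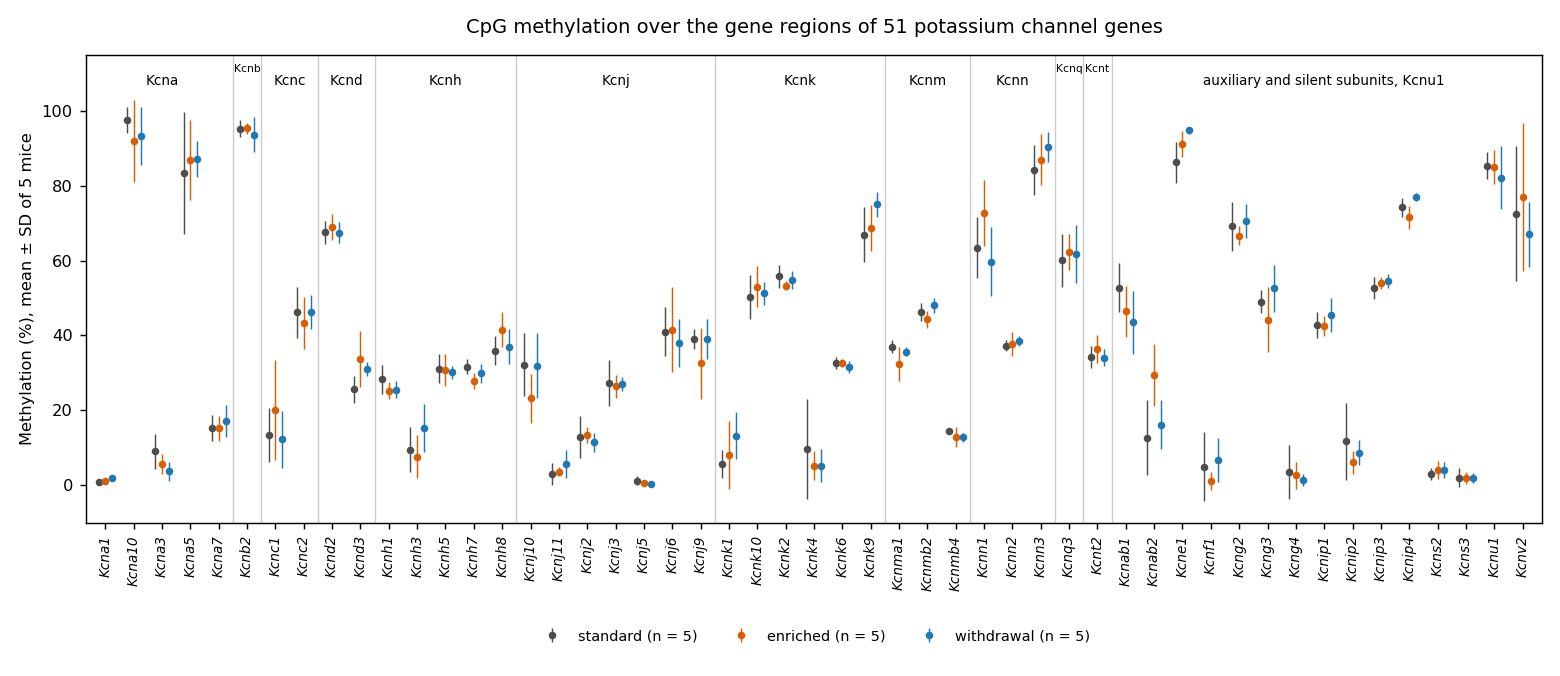
Mean CpG methylation, in percent, over the gene regions of 51 of the 55 tested potassium channel genes, by subfamily. Points and bars are the mean and SD of 5 mice in standard (grey), enriched (orange) and withdrawal (blue) housing. Levels run from 0.68% in Kcnj5 to 94.7% in Kcnb2, while the 3 groups mostly overlap within a gene.

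The level of the whole set was close in the 3 groups. The mean over the 478 sites was 36.3% ± 1.19 for standard, 36.3% ± 0.60 for enriched and 36.8% ± 0.93 for withdrawal mice (SD, n = 5 each). Single mice ranged from 34.9% to 38.1% in the standard group, which spans all the other values. Over all genes the group means were 34.1%, 34.1% and 34.5%. By subfamily, the largest gaps between enriched and standard means were 8.33 points in the Kcne accessory subunits (6 sites), 7.54 points in the Kcnab accessory subunits and 5.65 points in Kcnd, each higher in enriched mice. The Kcnm mean was 2.73 points lower in enriched mice, with 1 enriched mouse, at 34.0%, inside the standard range of 31.9% to 34.8%. No subfamily had groups that did not overlap in any comparison.

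Differences between groups were tested at CpG sites, gene regions, start regions (sites within 1 kb of a start) and fixed 1 kb windows. The test was limma on log2((percent + 5)/(100 - percent + 5)), with p-values adjusted by Benjamini-Hochberg over all autosomal features of the kind. Differences in points are differences of mean percentages, and log2 differences are on that scale with their standard error. The comparisons share mice: the standard group serves in both comparisons with it, and the enriched and withdrawal groups also each serve in 2. The labels name each sample as 1 mouse. The p-values set a difference between group means against the spread between these mice, which limma moderates over all features.

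No potassium channel feature passed an adjusted p of 0.05 at any level in any comparison. Over all features the share that passed was 0.0124% for gene regions between enriched and standard mice (1 of 8080, outside the family) and 0% in every other test. Of the 478 sites, 425 had a range of at least 5 points over the mice and were tested singly. At an unadjusted p under 0.05, 34 of 425 potassium channel sites (8.0%) differed between enriched and standard mice, beside 5.1% of all sites. The same count was 23 of 425 (5.41%) between withdrawal and standard mice, beside 4.41%, and 23 of 425 between withdrawal and enriched mice, beside 4.29%. For gene regions it was 5 of 55 beside 5.92%, 4 of 55 beside 5.2% and 6 of 55 beside 4.93%, in the same order. For windows it was 3 of 68 beside 5.71%, 4 of 68 beside 4.79% and 3 of 68 beside 4.37%. None of the 18 start regions reached it, beside 5.21%, 5.06% and 5.15% over all 3322 start regions. The shares of the family were not tested against those over all features, and no gene below is called changed.

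Between enriched and standard mice 27 of the 55 gene regions were higher and 28 lower, with a median difference of -0.05 points, against 0.02 points over all 8080 genes. Between withdrawal and standard mice the counts were again 27 and 28, with a median of -0.07 points against 0.27. Between withdrawal and enriched mice 31 were higher and 24 lower, with a median of 0.23 points against 0.20. The median size of the difference, whatever its sign, was 2.55, 1.87 and 2.29 points in the 3 comparisons, against 1.48, 1.36 and 1.35 points over all genes. Mice of 1 group also lay farther apart at these genes. A mouse differed from the mean of the other 4 of its group by 8.77 ± 0.83, 9.03 ± 0.66 and 7.46 ± 0.90 points per site in standard, enriched and withdrawal mice. Over all genes these distances were 7.44, 7.37 and 6.42 points. Of the family's sites 20.7% averaged between 20% and 80%, against 16.5% over all genes. The part of these site levels in the spread, and of the spread in the larger differences, was not tested.

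**Figure D4:**
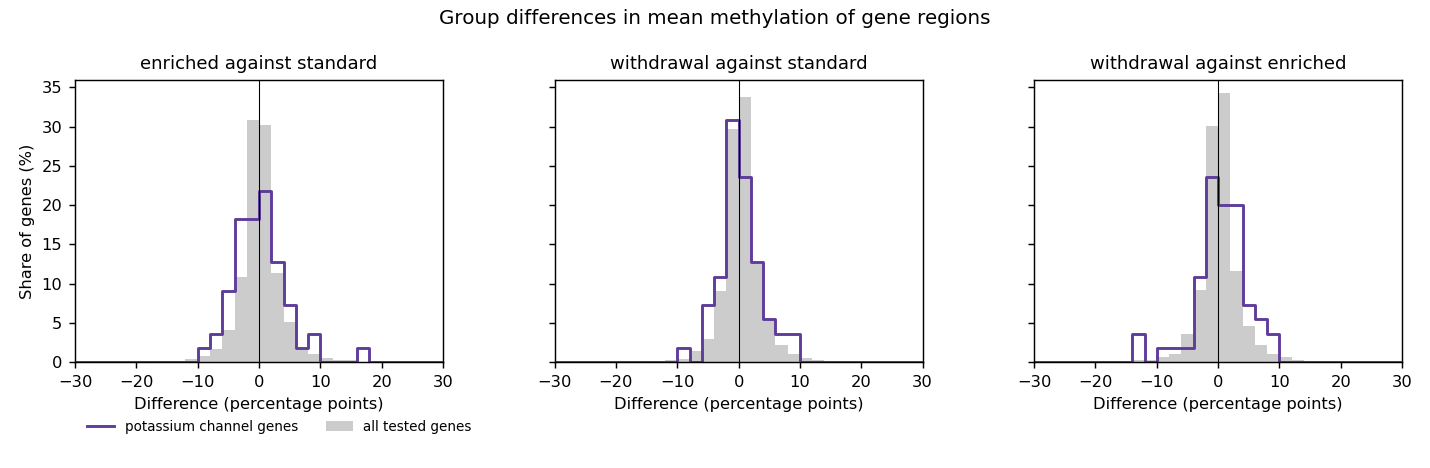
Distribution of differences in gene region methylation, in percentage points, for 55 potassium channel genes (purple line) and all 8080 tested genes (grey), as a share of genes in classes of 2 points. Each panel is 1 comparison. The purple line centres near 0, with median differences of -0.05, -0.07 and 0.23 points, and is the wider of the pair.

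The genes with the smallest p in each comparison are described next. They were picked by rank, so their values describe these mice. Ranking by p favours groups that lie apart, so a lack of overlap at a picked site or window is no separate result. How often groups did not overlap was counted over all gene regions, but not over all sites or windows. Where adding sites measured in at least 3 mice of each group moved a gene or start region difference by over 1.5 times, that value is given beside it. Between enriched and standard mice the first gene region was that of Kcnab2, a cytoplasmic subunit of shaker channels that takes part in their transport to axons (9 sites). Standard mice read 7.33%, 5.52%, 4.07%, 26.9% and 19.8%, and enriched mice 21.4%, 31.5%, 21.5%, 31.9% and 41.0%. Standard mouse 4 lay within the enriched range, and the other 4 standard mice lay below it. The means were 12.7% ± 10.1 and 29.5% ± 8.25, a log2 difference of 1.40 ± 0.41 with a limma adjusted p of 0.701. Withdrawal mice read 17.9%, 18.6%, 24.7%, 11% and 8.25%, inside the standard range. Their difference from enriched mice was -0.97 ± 0.41 (limma adjusted p of 0.994), and it was -0.20 with the added sites.

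The Kcnab2 difference lay in 6 sites inside the gene, at chr4:152456880-152456953, all on the minus strand and at least 3935 bases from the nearest start. Over these 6 sites standard mice read 11%, 8.28%, 5.18%, 39.9% and 27.4%. Enriched mice read 31.6%, 46.5%, 30.6%, 47.9% and 61.5%, and withdrawal mice 24.4%, 27.2%, 37.1%, 15.4% and 12.4%. The 6 sites had similar group means, with standard means between 14.8% and 20.8% and enriched means between 41.3% and 46.2%. Whether such close sites vary independently between mice was not tested. The window differed by 25.3 points (1.75 ± 0.54, limma adjusted p of 0.797). By contrast the 3 sites near the Kcnab2 starts averaged 1.48%, 1.13% and 1.69% in standard, enriched and withdrawal mice. With the added sites, the gene region difference between enriched and standard mice was 0.21.

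Kcnd3, a dendritic A-type channel, was among the first 5 gene regions. Standard mice read 23.7%, 25.0%, 29.5%, 20.6% and 29.0%, and enriched mice 35.4%, 30.3%, 42.4%, 22.7% and 37.3%. Enriched mouse 4 lay inside the standard range and the other 4 lay above it. The log2 difference was 0.48 ± 0.18 (limma adjusted p of 0.785), and it was 0.28 with the added sites. Its window of 8 sites at chr3:105505836-105505959, at least 53946 bases from the nearest start, ranked first of the family's windows. There standard mice read 5.64%, 8.92%, 8.71%, 1.65% and 9.35%, and enriched mice 27.9%, 20.3%, 41.9%, 4.96% and 29.9%. Withdrawal mice read 26.1%, 15.5%, 13.6%, 14.2% and 12.3%, all above every standard mouse. The difference was 1.54 ± 0.46 between enriched and standard mice (limma adjusted p of 0.776) and 1.01 ± 0.46 between withdrawal and standard mice (limma adjusted p of 0.995). Farther into the gene, 4 sites at least 98552 bases from the start averaged between 76.0% and 92.3%.

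Kcnma1, the pore of the large-conductance channel that shortens action potentials, was lower in the enriched group mean. Standard mice read 38.6%, 37.6%, 35.2%, 35.0% and 38.3%, and enriched mice 30.9%, 40.0%, 30.5%, 32.3% and 27.9%. Enriched mouse 2 was the highest of these 10, and the other 4 enriched mice were below all standard mice. The log2 difference was -0.27 ± 0.11 (limma adjusted p of 0.816). It was 0.17, of opposite sign, with sites measured in at least 3 mice of each group. Withdrawal mice read 34.1% to 37.0%.

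Kcnh7, the channel of the ether-a-go-go family whose start is shown above, was also among the first 5. Its standard mice read 28.6% to 33.7% and its enriched mice 25.2% to 30.2% (-0.24 ± 0.10, limma adjusted p of 0.826), and the difference was -0.43 with the added sites. Here the site with the smallest p of the family in this comparison lay far inside the gene, at chr2:62705683 on the plus strand, 478604 bases from the start shown above. Standard mice read 100%, 100%, 100%, 95.5% and 100%. Enriched mice read 85.7%, 75.0%, 61.4%, 69.6% and 82.2%, all below the standard mice. Withdrawal mice read 100%, 92.3%, 80.5%, 95% and 85.7%, and spanned the gap. The difference between enriched and standard mice was -2.74 ± 0.52, with a limma adjusted p of 0.351 that ranged from 0.179 to 0.786 over the alternatives. The next site, 60 bases away, averaged 96.1%, 82.8% and 81.6% in standard, enriched and withdrawal mice, so that withdrawal mice were low there as well.

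Kcnk2, a background channel opened by membrane stretch and by fatty acids, had a site of the same kind at chr1:189230206 on the plus strand, 113147 bases from the nearest start. All 5 standard mice read 100%, and enriched mice read 85.8%, 84.1%, 84.8%, 92.7% and 91.6%. The groups did not overlap, and withdrawal mice, at 95%, 100%, 97.6%, 99% and 91.8%, overlapped both. The difference was -1.93 ± 0.38 between enriched and standard mice (limma adjusted p of 0.362, between 0.0746 and 0.786 over the alternatives). It was 1.23 ± 0.38 between withdrawal and enriched mice (limma adjusted p of 0.976). A site 23 bases away averaged 97.5%, 91.3% and 94.7% in standard, enriched and withdrawal mice. Sites with values in 12 mice averaged 100%, 100% and 95.6% at 177 bases, and 100%, 86.2% and 98% at 200 bases, in the same order. Across the whole Kcnk2 region the group means were 55.8% ± 3.06, 53.3% ± 1.27 and 54.8% ± 2.38.

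**Figure D5:**
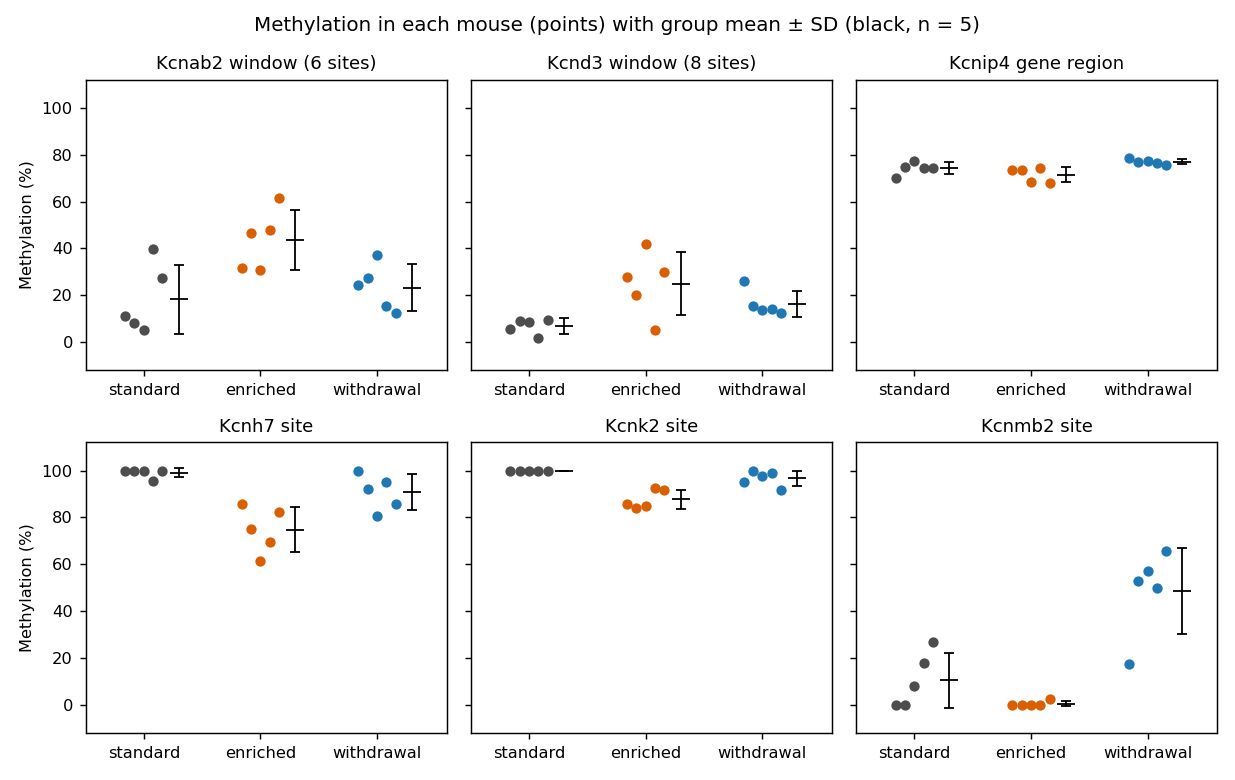
Methylation in each mouse, in percent, at 2 windows and the Kcnip4 gene region (top) and 3 single CpG sites (bottom) of potassium channel genes, by housing group. Coloured points are mice, and black marks give the group mean and SD (n = 5). At the Kcnmb2 site the enriched mice read 0% to 2.5% and the withdrawal mice 17.2% to 65.5%.

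In all, the 34 sites at an unadjusted p under 0.05 between enriched and standard mice lay in 20 genes, with 19 higher and 15 lower in enriched mice. Kcnab2 held 5 of them and Kcnd3 3, all higher. Sites in Kcnj10, Kcnma1, Kcnq5 and Kcnh7, 2 in each, were all lower. Kcnip2, a partner of A-type channels in heart and brain, had 1 such site, which also belongs to the surroundings of another gene, at chr19:45816721 on the plus strand. Standard mice read 0%, 28.9%, 15.8%, 5.13% and 11.8% there, and every enriched mouse read 0%. The cytosine of the same CpG on the opposite strand averaged 12.1% in standard and 8.98% in enriched mice, so the strands differed in how far the groups lay apart.

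Between withdrawal and standard mice the first gene region was that of Kcne1 (4 sites). Standard mice read 81.1%, 83.8%, 87.7%, 83.7% and 95.2%, and withdrawal mice 95.4%, 94.0%, 96.2%, 94.6% and 94.1%. Standard mouse 5 lay within the withdrawal range and the other 4 lay below it. The log2 difference was 0.96 ± 0.28 (limma adjusted p of 0.811, between 0.172 and 1 over the alternatives). The SD was 0.96 points in withdrawal and 5.48 points in standard mice, and 3 of the 4 sites lie outside the gene. Kcnk9, an acid-sensitive background channel, read 57.9% to 75.7% in standard and 70.4% to 78.5% in withdrawal mice (0.49 ± 0.21, limma adjusted p of 0.953), a difference that was 0.14 with the added sites. Kcna3, a channel best known from lymphocytes, read 1.21% to 12.9% and 0% to 7.02% (-0.73 ± 0.33, limma adjusted p of 0.956), and its difference was -0.47 with the added sites.

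Kcnab1, also an accessory subunit of shaker channels, read 43.1% to 60.3% in standard and 32.8% to 54.2% in withdrawal mice (-0.50 ± 0.23, limma adjusted p of 0.957). That difference was 0.45, of opposite sign, with sites measured in at least 3 mice of each group. The gene region of Kcna1, the low-threshold axonal channel, was low in all groups, at 0.70% to 1.61% in standard and 1.47% to 2.30% in withdrawal mice. It differed by 0.98 points, or 0.23 on the log2 scale (limma adjusted p of 0.969), and by 0.10 on that scale with the added sites. Among windows the smallest p in this comparison belonged to Kcng2, a silent subunit, at 88.9% to 94.8% in standard and 93.1% to 97.8% in withdrawal mice (limma adjusted p of 0.995).

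Among single sites the smallest p between withdrawal and standard mice was in Kcnmb2, the accessory subunit whose start is shown above. The site lies inside the gene at chr3:32143315 on the minus strand. Standard mice read 0%, 0%, 8.0%, 17.6% and 26.8%, enriched mice 0%, 0%, 0%, 0% and 2.50%, and withdrawal mice 17.2%, 52.8%, 57.1%, 50% and 65.5%. Withdrawal mouse 1 lay inside the standard range, and every withdrawal mouse lay above every enriched mouse. The difference from standard mice was 2.86 ± 0.66 (limma adjusted p of 0.674) and that from enriched mice 4.14 ± 0.66 (limma adjusted p of 0.199). Without withdrawal mouse 1 the limma adjusted p for the second was 0.0492, and over the other alternatives it reached 0.705. No other listed CpG site lay within 200 bases of it. The gene region of Kcnmb2, over 17 sites, read 41.2% to 46.7% in enriched and 45.9% to 50.9% in withdrawal mice (0.20 ± 0.09, limma adjusted p of 0.994).

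Kcnk1, a weakly conducting background channel, had a site at chr8:126006208 on the plus strand. Standard mice read 15.2%, 0%, 0%, 0% and 4.17%, and withdrawal mice 14.6%, 20%, 15.3%, 57.9% and 32.8% (2.43 ± 0.74, limma adjusted p of 0.960). Standard mouse 1 was within the withdrawal range. The gap was smaller at the complete site 36 bases away, where the withdrawal mean was 21.1% and the standard mean 17.7%. Nearby sites with values in 14 mice went both ways. At 37 bases the withdrawal mean was the lower, at 10.4% against 14.4%. It was the higher at 97 bases (18.3% against 6.25%) and at 108 bases (27.5% against 9.11%). A site of Kcne3, an accessory subunit of several voltage-gated channels, read 50% to 100% in standard mice and 100% in all 5 withdrawal mice. In Kcne3 only 2 sites were complete, so its gene region was not tested.

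Between withdrawal and enriched mice the first gene region was that of Kcnip4, a calcium-binding partner that slows A-type channels (15 sites). Enriched mice read 73.4%, 73.6%, 68.6%, 74.2% and 68.0%, and withdrawal mice 78.6%, 77.0%, 77.3%, 76.5% and 75.5%. The groups did not overlap. It was the only potassium channel gene region of which this was true in this comparison, 1 of 55, beside 0.755% of all genes. In the 2 comparisons with standard mice the counts were 0 of 55, beside 0.73% and 0.842%. Standard mice read 70.1% to 77.4% and overlapped both groups. The log2 difference was 0.35 ± 0.11 (limma adjusted p of 0.886), and it was -0.12 with sites measured in at least 3 mice of each group.

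Kcnn1, a small-conductance channel opened by calcium, read 64.8% to 84.9% in enriched and 47.8% to 73.4% in withdrawal mice (-0.77 ± 0.31, limma adjusted p of 0.990). With the added sites its difference was -0.19. Kcnh3, a subthreshold channel of forebrain neurons, read 0%, 9.88%, 10.6%, 3.48% and 14.3% in enriched mice and 14.7%, 11.3%, 11.5%, 12.1% and 26.6% in withdrawal mice. The last withdrawal mouse stood well above the other 4. The log2 difference was 0.90 ± 0.41 (limma adjusted p of 0.994), and it was 0.02 without the 2 sites that also lie in or near another gene and 0.58 without enriched mouse 1. It was 0.05 with the added sites, 1.84 with sites inside the gene alone and 0.29 with sites within 5 kb. Kcnj10 had a site at chr1:172359372 on the minus strand that read 0% to 11.4% in enriched and 16.9% to 35.3% in withdrawal mice (2.23 ± 0.64, limma adjusted p of 0.976). Standard mice read 0% to 31.6% there.

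Among start regions the smallest p between enriched and standard mice was in Kcnj10. Over 3 sites near its start, standard mice read 5.30%, 23.4%, 30.04%, 44.1% and 23.1%, enriched mice 8.24%, 12.2%, 17.8%, 9.41% and 0%, and withdrawal mice 20.8%, 26.7%, 0%, 19.5% and 0%. Standard mouse 1 lay inside the enriched range, and the other 4 lay above it. The difference between enriched and standard mice was -1.32 ± 0.69 (limma adjusted p of 0.866). Between withdrawal and standard mice it was -1.17 ± 0.69 (limma adjusted p of 0.922), and -0.75 without withdrawal mouse 3 or without withdrawal mouse 5. It was -0.68 with the added sites. The start region of Kcnf1, a silent subunit, averaged 1.05% ± 2.35 in enriched mice, against 6.63% ± 5.91 after withdrawal (0.94 ± 0.50, limma adjusted p of 0.880), and the difference was 0.10 with the added sites. In the start regions of Kcnh5, Kcnh7, Kcnj3, Kcnj5, Kcnk2 and Kcnmb4 every group mean was below 4%.

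Counts of CpG sites that had a value ranged from 297844 (standard mouse 1) to 444106 (withdrawal mouse 4), and overlapped between groups. The mean over all 109658 complete autosomal sites ranged from 45.03% to 47.6%. Of 18 marker genes of granule cells, glia and endothelium, Prox1 (granule cells) and Slc1a3 (astrocytes) had complete sites at their starts, at 2.29% over 5 sites and 1.63% over 10 sites. The other 16 had none. The level was low in the granule cell marker and the astrocyte marker alike, so the labelled tissue could not be checked by these markers. Over the 478 potassium channel sites the mean correlation of 1 mouse with the other 14 lay between 0.88 and 0.93, as a description across sites.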

How the data were processed

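DNA methylation of the dentate gyrus of 15 mice was deposited as 1 table, in which a row is a cytosine on 1 strand and a column holds the percent methylation of 1 mouse. The submitters' processing notes name Trim Galore 0.4.0, cutadapt 1.8.1, Bismark 0.16.1 and methylKit 1.5.2 and the build mm10, with no order or role for any of them. The deposited percent values come without read counts or coverage, which leaves depth unknown, and no counting interval or coverage minimum could be applied. Any filter the authors used is not given in the sources used here. Groups and replicate numbers were taken from the sample titles. The first of 2 runs of positions in the table was used as CpG sites: all 47151 of its positions inside RefSeq promoter sequences of GRCm38.p6 fell on a CpG, and 0 of 134367 of the second run did.

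Gene extents came from RefSeq (GRCm38.p6) and starts from its promoter table, which lists 68 of the 91 genes. Exons, introns and UTRs were not used here. Sites with a value in all 15 mice were kept, and single sites also needed a range of at least 5 points over the mice. A gene region was the mean over at least 3 sites inside the gene or within 2 kb of it. Start regions took sites within 1 kb of any listed start, and windows were fixed at 1 kb, each with at least 3 sites. The 3 group means were fitted with limma 3.58.1 in R 4.3.3, with a variance trend, on log2((percent + 5)/(100 - percent + 5)), and the Benjamini-Hochberg adjustment ran over all autosomal features of the kind. The pipeline was tested on simulated data. Alternatives were an offset of 1 point, the percent scale, a replicate block, fits of 2 groups, each mouse left out, other site, gene, start and window limits, and strands averaged. One of them, the outermost gene end as the only start, was chosen after seeing the data.

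Genes, windows and sites are named by rank of p within each comparison (5 gene regions, 3 start regions, 3 windows and 5 sites), by level or spread, and by known roles in neurons, and a few genes this rule names are not reported here. The members and lists were chosen with earlier results of these data known. Of the per-mouse value columns 0 were left unused.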

Additional observations from a re-analysis of the deposited data

Results flagged for a closer look

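In 3 of the 101 groups of 5 mice examined (2.97%), 1 mouse stood apart from the other 4 by Dixon's criterion. Among independent, normally distributed groups that were not picked, the criterion flags about 1 in 20. The groups here overlap in their sites and include features picked by p, so their chance rate is unknown. In the Kcnh3 gene region, withdrawal mouse 5 read 26.6% and the other 4 read 11.3% to 14.7%. In the Kcnd3 window, withdrawal mouse 1 read 26.1% and the others 12.3% to 15.5%. In the Kcnb2 window, in a delayed rectifier gene whose complete sites were all highly methylated, withdrawal mouse 3 read 86.4% and the others 96.0% to 98.2%. All 3 lie in the withdrawal group, in different mice.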

How the results depend on the processing

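Every count of potassium channel features past an adjusted p of 0.05 remained 0 under every alternative run, with 1 exception. Leaving out each mouse in turn gave 0 to 1 called sites between withdrawal and enriched mice, the 1 being the Kcnmb2 site without withdrawal replicate 1. The difference in the set mean kept within the spread between mice, at -0.29 to 0.51, 0.18 to 0.98 and 0.18 to 0.76 points in the 3 comparisons. Of 1096 values of the 48 named results under the alternatives, 5 changed sign, all with sites measured in at least 3 mice of each group: 0.17 (Kcnma1 gene region, enriched against standard), 0.45 (Kcnab1 gene region, withdrawal against standard), -0.12 (Kcnip4 gene region, withdrawal against enriched), and, for the Kcnh8 start region, -0.0071 (enriched against standard) and 0.19 (withdrawal against enriched). The cause was not tested. The same added sites moved 17 of the 48 named values by over 1.5 times without a change of sign, 16 of them to smaller values. An offset of 1 point, which stretches the scale near 0% and 100%, made 28 of the 48 over 1.5 times larger. Leaving out each mouse in turn gave 26 to 42, 22 to 29 and 18 to 28 of 425 potassium channel sites at an unadjusted p under 0.05. With the added sites the counts were 89, 61 and 66 of 1571 (5.67%, 3.88% and 4.2%), beside 4.63%, 4.26% and 4.15% of all sites. For windows they were 23, 14 and 10 of 257 (8.95%, 5.45% and 3.89%), beside 5.63%, 4.81% and 4.63% of all windows. For gene regions they were 3, 2 and 3 of 81 (3.7%, 2.47% and 3.7%), beside 3.8%, 3.07% and 2.87%. Mice with the same number did not deviate together (correlations of -0.03 to 0.05), so the numbers were not taken to pair them. A replicate block gave 0 called potassium channel features at all 4 levels, and 39, 22 and 23 of 425 sites at an unadjusted p under 0.05 (9.18%, 5.18% and 5.41%), beside 5.2%, 4.47% and 4.41% of all sites in the blocked fit. Unknown depth, 5 mice per group and the 27 genes with no complete site limit what could be detected.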

Other observations

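Outside the Kcn family, 25 partner genes were listed (accessory proteins of potassium channels, HCN channels, axonal anchoring proteins, calmodulins and the repressor Rest), of which 18 had a tested gene region. None passed an adjusted p of 0.05 in limma. The counts with an unadjusted p under 0.05 were 0 of 18 (enriched against standard), 1 of 18 (withdrawal against standard) and 1 of 18 (withdrawal against enriched). Over all gene regions the shares were 5.92%, 5.2% and 4.93% in the same order. The partner counted was Abcc9 in both comparisons. Dpp6 and Dpp10, both partners of A-type channels, stood far apart, at 10.2% ± 1.87 and 91.8% ± 3.05 in standard mice. Dpp6 was at 10.6% in enriched and 11.7% in withdrawal mice, and Dpp10 at 93.8% and 93.9%. The pacemaker genes Hcn2 and Hcn4 were at 3.28% and 1.94% in standard mice. Rest, a repressor of neuronal genes, was at 40.5% ± 2.34 in standard mice, 39.1% in enriched and 39.7% in withdrawal mice.

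Methylation outside CpG was low at the potassium channel genes. Over 2533 such positions with a value in every mouse the mean was 0.789% ± 0.082 for standard mice, 0.809% ± 0.060 for enriched mice and 0.806% ± 0.039 for withdrawal mice. Over all genes it was 0.822%, 0.812% and 0.812%.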
